A study of Mus musculus with 16 samples.

Results

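Utrophin, dystrophin and their close relatives were followed through 8 lists of RNA regions recovered with THOC5, a subunit of the THO complex that couples transcription to mRNA export. The 5 genes are Utrn (utrophin), Dmd (dystrophin), Drp2 (dystrophin related protein 2), Dtna and Dtnb (the dystrobrevins), set beside 4051 genes with a peak inside them in any list. They were chosen by name with the peak counts of these lists known, so their counts are a description and were not tested. A peak was assigned to a gene when the RefSeq transcript in its deposited annotation belonged to that gene and the annotation placed it in an exon, an intron, a UTR or the transcription end.

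The cells were primary mouse vascular smooth muscle cells, and the 4 conditions had 2 THOC5 immunoprecipitates each. Ctrl cells, genotype WT, were in growth medium. Pi cells, genotype WT, were in osteogenic medium. GFP OE cells, also labelled WT, carried GFP overexpression in osteogenic medium, and THOC5 OE cells carried THOC5 overexpression in osteogenic medium. Each condition also had 2 inputs, which were not analysed here. Lists were matched to samples by the abbreviations in the file headers, and the one taken for THOC5 OE is the least plain of them. The labels give no vector, time, donor animal or culture for these samples, so the spread between replicates may be technical.

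The lists held 2572 to 4795 peaks and 1231 to 2093 genes with a peak. Every peak of a list had the same width, from 415 to 553 bp, and read depth and RNA levels were not analysed here. Peaks are ranked below by their percentile, the rank of the authors' score within its own list. No source used here gives the scale of that score. Thoc5 itself had 1 peak, in Ctrl replicate 2, and a peak list gives no level of the overexpressed transcript. Of all protein-coding genes 18% had a peak in any list. Of the markers of smooth muscle, 5 of 8 had a peak, among them the kinase gene Mylk with a peak in all 8 lists and the actin gene Acta2 in 3, while Myh11, Cnn1 and Myocd had no peak. Of the markers of fibroblasts 1 of 3 had a peak (Pdgfra, in Pi replicate 1). None of 3 endothelial, 4 skeletal muscle, 4 Schwann cell and 3 leukocyte markers had a peak, which gives no level of those cells.

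Dystrophin and utrophin are long rod-shaped proteins built from spectrin repeats. They bind actin at one end and, at the other, dystroglycan in the plasma membrane, which in turn holds laminin in the extracellular matrix. The dystrobrevins bind the carboxyl-terminal part of both proteins and recruit syntrophins. Dystrophin is best known from striated muscle, whereas utrophin is made in many tissues. Both genes are unusually long, and most of their primary transcript is intron.

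Utrn was the only member with a peak in all 8 lists, and Dmd had none. The Ctrl lists held 26 and 29 Utrn peaks, the Pi lists 12 and 25, the GFP OE lists 31 and 12, and the THOC5 OE lists 22 and 18. The counts were high in both Ctrl lists, in Pi replicate 2 and in GFP OE replicate 1, and lowest in Pi replicate 1 and GFP OE replicate 2. Its 175 peaks gave it rank 3 among the 4051 genes, after Syne1 (360) and Vps13b (228), and its rank within a list ranged from 3 to 11. A peak in all 8 lists was found in 9.87% of genes with a peak in any list. Because the samples are bulk RNA without levels, more transcript per cell and more cells with the transcript cannot be told apart from more binding.

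**Figure D1:**
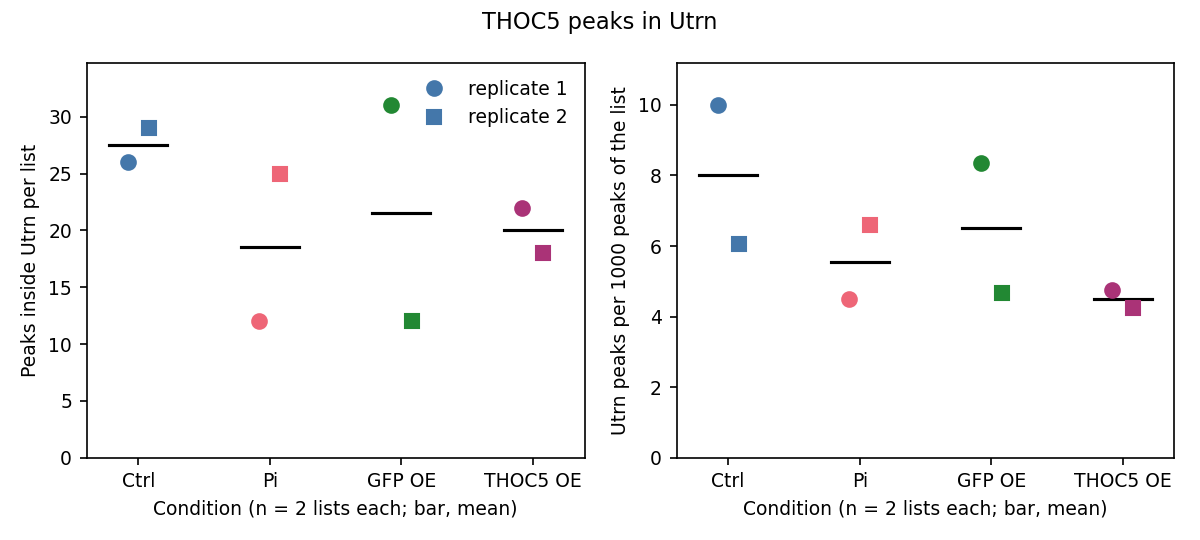
Peaks inside Utrn in each of the 8 lists (left) and per 1000 peaks of the list (right), by condition, with circles for replicate 1, squares for replicate 2 and a bar at the mean of 2 lists. The replicates of Pi (12 and 25) and of GFP OE (31 and 12) lie farther apart in peak counts than the means of any of the 4 conditions; per 1000 peaks this does not hold for Pi (4.50 and 6.59), as the means range from 4.50 to 8.02.

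The 5' end of Utrn is shown first, since 2 groups of peaks lie there and the deposited annotation counts almost none of them as inside the gene. The annotated start of transcript NM_011682 lies at the lower end of chr10:12861736-12861985, which holds the 250 bases before that start on the minus strand (RefSeq, GRCm38.p6). The last 20 bases before the start are in capitals.

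Utrn: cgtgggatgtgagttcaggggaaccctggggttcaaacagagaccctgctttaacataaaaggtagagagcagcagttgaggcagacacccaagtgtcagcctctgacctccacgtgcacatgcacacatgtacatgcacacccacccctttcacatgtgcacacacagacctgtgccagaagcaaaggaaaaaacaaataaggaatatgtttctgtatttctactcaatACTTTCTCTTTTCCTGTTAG

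Of those 20 bases, 16 are pyrimidines (C or T) and the last 2 read AG. As background, a run of pyrimidines that ends in AG is the usual form of the end of an intron. Of 32851 promoter windows in the table, 0.286% end in AG with at least as many pyrimidines in the last 20 bases. Neither GGGCGG, the core of a GC box, nor TTCCGG, an Ets-type element, was found in the 250 bases on either strand, and 32.7% and 12.0% of windows of this length hold one. The RefSeq span of Utrn reaches past this window, to chr10:12869888, so the motifs were looked for in the window alone. Whether the window is a promoter of Utrn was not tested. G and C make up 46.8% of the printed bases.

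Peaks at this place were found in 6 lists, at percentiles 88.7 to 94.6, and those of 5 lists reached into the printed bases. Of the 250 bases they covered 131 in Ctrl replicate 1, 122 in Ctrl replicate 2, 102 in GFP OE replicate 1, 187 in GFP OE replicate 2 and 238 in THOC5 OE replicate 1. The annotation called 4 of these 6 peaks promoter, 1 exon 1 and 1 intron 1, so the same place changed class from list to list. A second group of peaks lay farther upstream, between chr10:12868342-12869207, at percentiles 88.5 to 94.0 in 7 lists (all but GFP OE replicate 1). Its peaks are labelled intergenic, partly with a CpG island, yet they lie inside the RefSeq span of Utrn (chr10:12382187-12869888), 1.11 kb from its 5' end. That span reaches beyond the start of NM_011682. With every peak centred in that span counted, the Ctrl lists held 28 and 31, the Pi lists 13 and 26, the GFP OE lists 31 and 14 and the THOC5 OE lists 24 and 19.

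Along the gene, peaks were grouped in 2 blocks between long stretches without any. The middle block of 144.77 kb (chr10:12620776-12765546, from intron 1 to intron 50) held 24 sites and 120 peaks, or 68.6% of all Utrn peaks. The block nearer the 3' end, 132.522 kb long (chr10:12405903-12538425), held 17 sites and 53 peaks, or 30.3%. The stretch between these blocks, 82.351 kb, and the 95.681 kb between the middle block and the peaks at exon 1 held no peak in any list. The last 23.716 kb of the span, which include the end of the transcript, held none either, so no 3' UTR peak was seen. These blocks were drawn after the positions had been seen.

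Peaks of the middle block ranked higher, with a median percentile of 91.3 against 74.3 in the block near the 3' end, and this order held in each of the 8 lists. The block near the 3' end took 45.5% and 50% of the Utrn peaks in THOC5 OE, and 16.7% to 28% in the 6 other lists. There the THOC5 OE lists held 10 and 9 peaks, the Ctrl lists 6 and 8, the Pi lists 2 and 7 and the GFP OE lists 8 and 3. In the middle block the THOC5 OE lists held 12 and 9, the Ctrl lists 20 and 21, the Pi lists 10 and 17 and the GFP OE lists 22 and 9. Low counts in the middle block were shared by both THOC5 OE lists, Pi replicate 1 and GFP OE replicate 2.

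**Figure D2:**
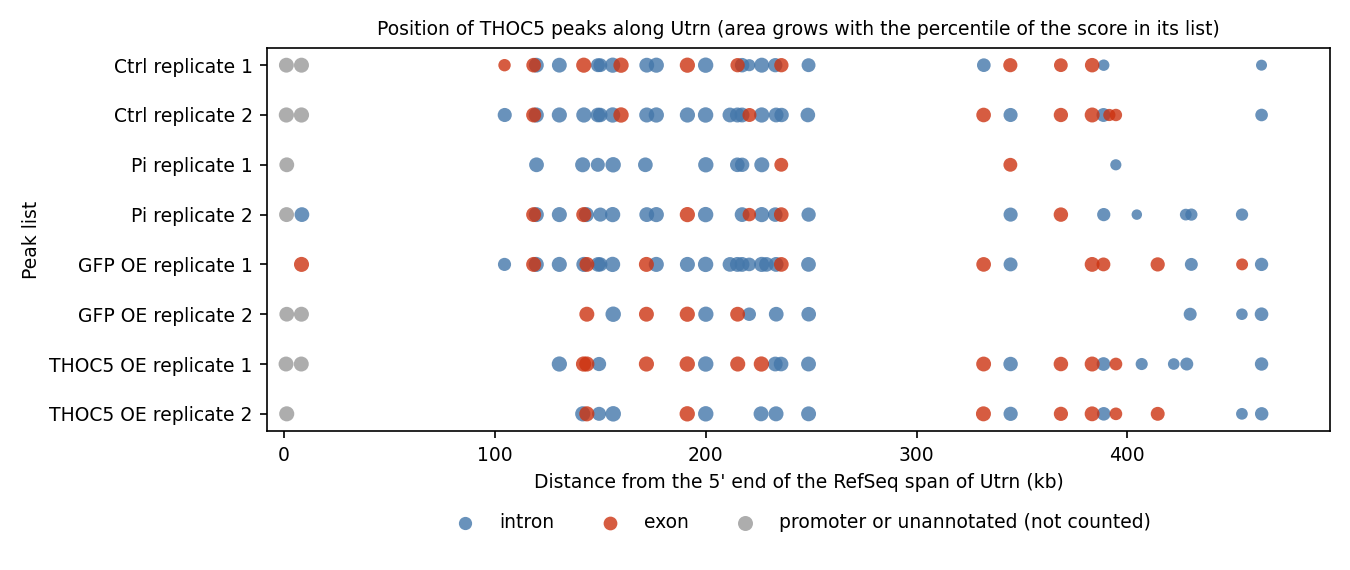
Position of each peak along Utrn (x axis, distance in kb from the 5' end of the RefSeq span) in each of the 8 lists (y axis). Blue points are peaks annotated to introns, red points to exons, and grey points are promoter or unannotated peaks that were not counted; the area of a point grows with its percentile. Peaks crowd into 2 blocks, with stretches of 95.681 and 82.351 kb that are empty in every list. The empty stretches of a single list can be longer.

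Most Utrn peaks were intronic. Exons held 10 of 26 peaks in Ctrl replicate 1, 8 of 29 in Ctrl replicate 2, 2 of 12 in Pi replicate 1, 6 of 25 in Pi replicate 2, 10 of 31 in GFP OE replicate 1, 4 of 12 in GFP OE replicate 2, 10 of 22 in THOC5 OE replicate 1 and 7 of 18 in THOC5 OE replicate 2. The exonic share was 32.1% on average (SD 9.19, n = 8 lists), lowest in Pi replicate 1 (16.7%) and highest in THOC5 OE replicate 1 (45.5%). Over all peaks inside genes it was 41.5%. List by list, the Utrn share was below that of all peaks inside genes in the Ctrl, Pi and GFP OE lists. It was above it in both THOC5 OE lists (45.5% against 38.4%, and 38.9% against 37.4%). The exonic share was 45.3% in the block near the 3' end, where THOC5 OE had a larger part of its peaks, and 26.7% in the middle block. The part of position in the exonic shares of THOC5 OE was not tested. Peaks fell in 21 of 74 exons and 34 of 73 introns of NM_011682. The class is a weak label here: of 42 sites, 6 were called exon in every list that had them, 21 intron and 15 both, since a shift of the peak by part of its width moves it over an exon border. Repeats were at the centre of 8% of Utrn peaks and of 7.88% of all peaks inside genes.

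Peaks of different lists that overlapped by at least 1 base were joined into sites. Utrn had 42 sites inside the gene, of which 34 were seen in at least 2 lists and 13 in at least 6. Over all genes 51% of 11908 sites were seen in at least 2 lists and 9.14% in at least 6. The 8 Utrn sites seen in a single list had a median percentile of 56.3, while the 8 sites seen in 7 lists had one of 92.2. Of the 175 Utrn peaks, 170 were at or above the median score of their list, and recurrence was not set against other genes of like score.

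**Figure D3:**
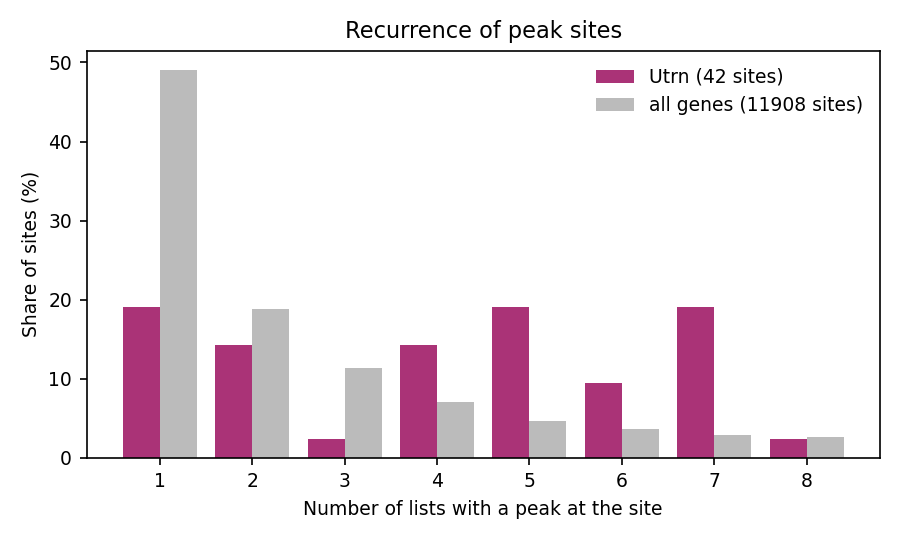
Share of sites (y axis, percent) by the number of lists with a peak at the site (x axis), for the 42 sites of Utrn and the 11908 sites of all genes. Single-list sites make up 49.0% of all sites and are 8 of the 42 in Utrn.

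One site was present in all 8 lists, in intron 35 (best peak chr10:12669652-12670125), partly on a GGGA simple repeat. Its percentile was 96.6 and 97.7 for Ctrl, 96.3 and 97.3 for Pi, 96.9 and 95.5 for GFP OE, and 97.7 and 97.5 for THOC5 OE, a range of 95.5 to 97.7. The highest percentile of any member, 98.7 in THOC5 OE replicate 2, belonged to a site in intron 19 (chr10:12713505-12714043). That site was in 7 lists and missing from THOC5 OE replicate 1. One or the other of these 2 intronic sites was the leading Utrn peak of each list, at ranks 53 to 115.

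From the 5' to the 3' end, the other sites of the middle block with peaks in 6 or 7 lists began at exon 15 and its flanking introns (chr10:12727472-12728552, percentiles 92.2 to 95.3, 7 lists). These coordinates are the whole site, a chain in which the peaks of Pi replicate 1 and THOC5 OE replicate 2 do not overlap the highest-ranked peak. For the other sites in at least 6 lists, the coordinates are those of the highest-ranked peak, which the peak of every list with the site overlaps. Next came the site at exon 24 and its flanking introns (chr10:12697786-12698259, 87.5 to 93.7, 7 lists) and that at exon 33 and intron 33 (chr10:12678409-12678882, 92.3 to 97.0, 7 lists). A site at exon 43 and intron 42 (chr10:12654474-12654947) had percentiles of 82.3 to 92.9 in 6 lists. The site at exon 46 and its flanking introns (chr10:12643131-12643546) reached 91.2 to 95.5 in 7 lists. Introns 47 and 48 (chr10:12636279-12636817, 81.9 to 92.0, 7 lists), exon 49 and its flanking introns (chr10:12633819-12634239, 76.5 to 88.0, 6 lists) and introns 49 and 50 (chr10:12620835-12621373, 77.3 to 90.8, 7 lists) close this block.

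In the block near the 3' end, the sites in at least 6 lists were exon 52 and intron 52 (chr10:12525045-12525518, 77.0 to 84.5, 7 lists), exon 55 and intron 55 (chr10:12481010-12481425, 48.3 to 77.6, 6 lists) and intron 69 (chr10:12405982-12406511, 44.0 to 73.8, 6 lists). The last was in both lists of Ctrl, GFP OE and THOC5 OE and in neither list of Pi. In all, 13 of the 42 Utrn sites had a peak in at least 1 list of every condition, as did 11.5% of the 11908 sites of all genes.

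Replicates shared Utrn sites to different degrees. All 26 Utrn peaks of Ctrl replicate 1 overlapped one of the 29 of Ctrl replicate 2 (100% and 89.7% of the lists). Within Pi the shared peaks were 7 of 12 and 7 of 25 (58.3% and 28%), in GFP OE 11 of 31 and 11 of 12 (35.5% and 91.7%), and in THOC5 OE 15 of 22 and 15 of 18 (68.2% and 83.3%). For all peaks inside genes the same shares were 58.1% and 31.7% for Ctrl, 41.1% and 29.0% for Pi, 35.4% and 51.6% for GFP OE, and 56.2% and 61.2% for THOC5 OE.

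Osteogenic medium was first set against growth medium. Utrn had 18.5 peaks per list in Pi (SD 9.19, n = 2) and 27.5 in Ctrl (SD 2.12, n = 2), a difference of -9 with a pooled SD of 6.67. Both Pi counts (12 and 25) lay below both Ctrl counts (26 and 29), the nearest by 1 peak. Of genes with a peak in these 4 lists, 6.71% had fewer peaks in both Pi lists than in either Ctrl list, and of the 92 genes with at least 20 peaks there 19.6% did. Per 1000 peaks of the list the groups overlapped, with 4.50 and 6.59 in Pi and 9.99 and 6.05 in Ctrl. Without Pi replicate 1 the difference was -2.5.

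No Utrn site was shared by the Pi lists and missing from the Ctrl lists, a pattern that 2.4% of all sites in these lists had. The reverse held for 5 of the 35 Utrn sites and for 4.76% of all sites. No member as a gene was bound in the Pi pair alone of these 4 lists, as 3.25% of genes were. They lay in intron 69, exon 54, exon 51 and intron 51, exon 22, and at exon 2 with its flanking introns. The exon 22 site (chr10:12709859-12710274) was in the Ctrl lists alone, at percentiles of 95.9 and 96.9. The sites at exon 54 and exon 51 were also in GFP OE replicate 1 and both THOC5 OE lists, which are in osteogenic medium.

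GFP overexpression was set against osteogenic medium alone. Utrn had 21.5 peaks per list in GFP OE (SD 13.4, n = 2), 3 more than in Pi, with a pooled SD of 11.5. The groups overlapped fully, since both held 1 list with 12 peaks, and the difference was -6.5 without GFP OE replicate 1 and 12.5 without GFP OE replicate 2. Without Pi replicate 1 it was -3.5. The site in intron 69 was shared by the GFP OE lists and missing from the Pi lists. It was 1 of the 36 Utrn sites in these lists, and no Utrn site showed the reverse. Of all sites in these lists, 5.06% and 3.77% had these patterns. As a gene, no member was bound in the GFP OE pair and not in Pi, as 3.65% of genes were. This comparison shares its Pi lists with the one above and its GFP OE lists with the one below.

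THOC5 overexpression was set against GFP overexpression in the same medium. Utrn had 20 peaks per list in THOC5 OE (SD 2.83, n = 2), 1.5 fewer than in GFP OE, with a pooled SD of 9.71. Scaled to the mean list length the difference was -7.27 (pooled SD 6.75), and per 1000 peaks the means were 4.50 in THOC5 OE and 6.51 in GFP OE. Both THOC5 OE counts (22 and 18) lay between those of GFP OE (31 and 12), and the difference was -11 without GFP OE replicate 2, 8 without GFP OE replicate 1 and 0.5 without THOC5 OE replicate 2. Sites at exon 53, at exon 57 with intron 56, and in intron 17 were shared by the THOC5 OE lists and missing from the GFP OE lists, as were 8.08% of all sites in these lists. The site of intron 17 (chr10:12720257-12720730) was in the THOC5 OE lists alone, but a site of Ctrl, Pi replicate 1 and GFP OE replicate 1 begins 6 bases away. Close by on its other side, a site in intron 18 (chr10:12719660-12720126) was in both Ctrl lists, Pi replicate 2 and GFP OE replicate 1. In the reverse direction stood the site at exon 45 and intron 44, 1 of the 38 Utrn sites, where 1.41% of all sites were.

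The count of Utrn peaks moved with the peak width of the list. In order of width, lists of 415, 420, 439, 443, 473, 529, 538 and 553 bp held 29, 31, 25, 26, 22, 12, 18 and 12 Utrn peaks. The 4 lists with peaks under 450 bp are both Ctrl lists, Pi replicate 2 and GFP OE replicate 1, so Pi and GFP OE are split by width while Ctrl and THOC5 OE are not. Among these 4 lists Utrn had 26 and 29 peaks in Ctrl, 25 in Pi and 31 in GFP OE. They held 111 of the 175 peaks at 37 sites, 12 of which no wider list had, and the wider lists held 64 peaks at 30 sites, 5 of which no narrower list had. The centres of neighbouring peaks were never closer than 839 bp in any list, and this limit was 1085 to 1168 bp in the 4 wider lists. The 2 lowest Utrn counts also belong to lists with few peaks (2666 and 2572), and Ctrl replicate 1 had 26 Utrn peaks among 2603. The part of peak width and of list length in the Utrn counts was not tested.

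**Figure D4:**
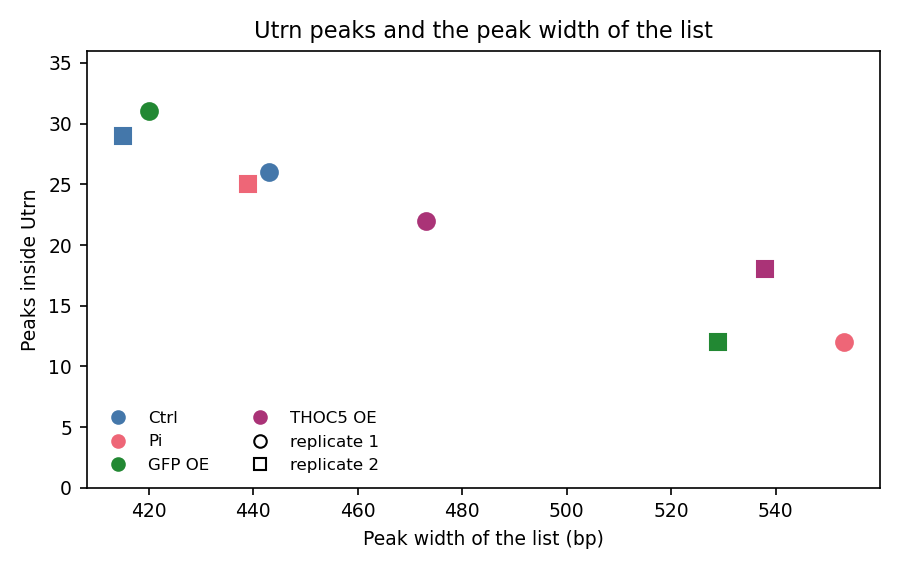
Peaks inside Utrn (y axis) against the single peak width of each list in bp (x axis), coloured by condition, with circles for replicate 1 and squares for replicate 2. The 4 lists under 450 bp hold 25 to 31 Utrn peaks and the 4 wider lists 12 to 22.

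Other genes for spectrin-repeat giants had peaks in all 8 lists too. In the same order of width Syne2, a nesprin of the nuclear envelope, had 31, 22, 29, 25, 18, 12, 14 and 15 peaks, and Syne1 had 58, 51, 55, 35, 49, 42, 40 and 30. The plakin genes Dst and Macf1, which link actin to microtubules, had 10 to 20 and 5 to 14. Per 100 kb of span and list, Utrn had 4.49 peaks, against 8.48 in Syne1, 7.09 in Syne2, 3.81 in Dst and 2.99 in Macf1. The exonic share of peaks over the 8 lists was 32.6% in Utrn, 36.9% in Syne1, 41.0% in Syne2, 36.9% in Dst and 43.2% in Macf1. The median percentile of Utrn peaks was 88.5, and those of Syne1, Syne2, Dst and Macf1 were 55.7, 76.8, 99.1 and 88.6. These values were set side by side and not tested.

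The spread of a gene's peaks over the 8 lists was compared with that of Utrn in 25 genes with a peak in every list and at least 88 peaks in all. The total variation distance, which is 0 for the same shares and 1 for none in common, was lowest for Lyst (0.0613), Dst (0.0667), Wdfy3 (0.0685), 4932438A13Rik (0.0717) and Syne2 (0.0804). Lyst, a long gene for a protein of lysosomal trafficking, had counts of 11 and 17 for Ctrl, 7 and 18 for Pi, 17 and 7 for GFP OE, and 16 and 11 for THOC5 OE. These genes share the same libraries and list lengths with Utrn.

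Dmd (chrX:82814664-85205050), the gene of dystrophin, had no peak in any of the 8 lists, by its transcripts, by the authors' nearest gene or by its span of 2390387 bp. Of protein-coding genes at least as long as Utrn, 28.3% of 237 had a peak in any list, and of those of 1000000 bp or more, 22% of 59 did. Over all protein-coding genes the share was 18%. With no list of the inputs, nothing here tells whether the Dmd transcript was made in these cells.

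Drp2 (chrX:134404124-134456574), for a short relative of dystrophin known from Schwann cells and brain, had 1 peak in each THOC5 OE list and none in the 6 others. The peaks overlapped, at chrX:134452824-134453297 in THOC5 OE replicate 1 and chrX:134452471-134453009 in THOC5 OE replicate 2, and lay in the 3' UTR in the last exon, 23 of 23. Their scores were 8.77 and 9.75, at percentiles 2.04 and 3.57. The lowest score of any peak in the 6 other lists was 10.2 to 29, so a peak of these scores would have lain below the floor of each of them. The authors' nearest gene for both was Taf7l, which lies next to Drp2 at chrX:134460116-134476505 and does not overlap it.

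Dtnb (chr12:3572372-3785486), for beta-dystrobrevin, had 2 peaks in THOC5 OE replicate 1, 1 in THOC5 OE replicate 2 and none elsewhere. Those of replicate 1 lay in exon 11 of 20 of the non-coding transcript NR_027870 (chr12:3732406-3732879) and in intron 12 of 17 of NM_001162465 (chr12:3734968-3735441), both with a score of 13.7 (percentile 11.1). That of replicate 2 lay in intron 9 of 17 (chr12:3717985-3718523), with a score of 20.7 (percentile 20.8). No place was shared, and the nearest gene by start site was Dnmt3a for all 3. Replicate 2 had a further promoter peak at chr12:3572588-3573126 (percentile 17.1), not counted as inside. The lowest score was 29 and 15.9 in the Ctrl lists, 20.5 and 14.9 in the Pi lists and 10.2 and 12.6 in the GFP OE lists. The score of 13.7 was thus below the floor of all Ctrl and Pi lists and above that of both GFP OE lists, and the score of 20.7 was below the floor of Ctrl replicate 1 alone.

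Dtna (chr18:23310006-23659719), for alpha-dystrobrevin, had 1 peak in GFP OE replicate 1 and 1 in each THOC5 OE list, all in introns. The peaks of GFP OE replicate 1 (chr18:23621513-23621933) and THOC5 OE replicate 2 (chr18:23621471-23622009) shared a place in intron 12 of 20. That of THOC5 OE replicate 1 (chr18:23595544-23596017) lay in intron 8 on an LTR repeat. Their scores were 10.2, 8.89 and 8.47, at percentiles 0.364, 1.75 and 1.53. The peak of GFP OE replicate 1 had the lowest score of its list, and the scores of the 3 were below the floor of both Ctrl lists, both Pi lists and GFP OE replicate 2.

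Drp2 and Dtnb had peaks throughout THOC5 OE and nowhere in GFP OE, as 6.34% of genes with a peak in these lists did, and in no other list, as 1.63% of all genes with a peak did. These counts chose the members and support nothing. With every list cut to its 2572 highest scores, Drp2, Dtna and Dtnb had no peak, while all 175 of Utrn remained. The scores are compared between lists here only for their floors, and the THOC5 OE lists have the lowest (6.72 and 6.31).

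The other genes of the dystrophin-glycoprotein complex are read against the 18% of protein-coding genes that had a peak in any list. Dag1, the gene of dystroglycan, the sarcoglycan genes Sgca, Sgcb, Sgcd, Sgce and Sgcz, and Sspn, the gene of sarcospan, had none. Of 5 syntrophin genes, Sntg1 had 1 peak, in THOC5 OE replicate 2 at percentile 4.85. Of 9 genes listed for laminin chains and laminin-type ligands of dystroglycan, 6 had a peak, a larger share than the 18% of protein-coding genes, which was not tested. Agrn, the gene of agrin, had 1 or 2 peaks in all 8 lists (best peak chr4:156165732-156166270, 3' UTR, percentile 99.6). Lama5 and Hspg2, the gene of perlecan, had peaks in 6 lists each, Lama4 in 5, and Lamb2 and Lamc1 in 1 each.

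Of 17 intracellular partners, 7 had a peak, beside 18% of protein-coding genes. Of these 7, 2 had one in all 8 lists, beside 9.87% of genes with a peak. Dysf, the gene of dysferlin, a protein of membrane repair, had 5 to 10 peaks per list at percentiles of 4.39 to 70.7. Ank3, an ankyrin gene, had 3 to 9 per list. Ank2 had counts of 6 and 7 for THOC5 OE, 4 and 1 for GFP OE, 0 and 2 for Pi and 0 and 1 for Ctrl, at percentiles no higher than 35.2. Both THOC5 OE lists thus held more Ank2 peaks than any other list. They also have the lowest score floors (6.72 and 6.31), and the part of these floors in the Ank2 counts was not tested. Set against GFP OE only, 14.5% of genes with a peak in the 4 overexpression lists had more peaks in both THOC5 OE lists than in either GFP OE list. The share of genes with this pattern over all 8 lists was not computed. Mast4 had peaks in 4 lists, Sync and Mast2 in 2 each and Plec in 1.

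**Figure D5:**
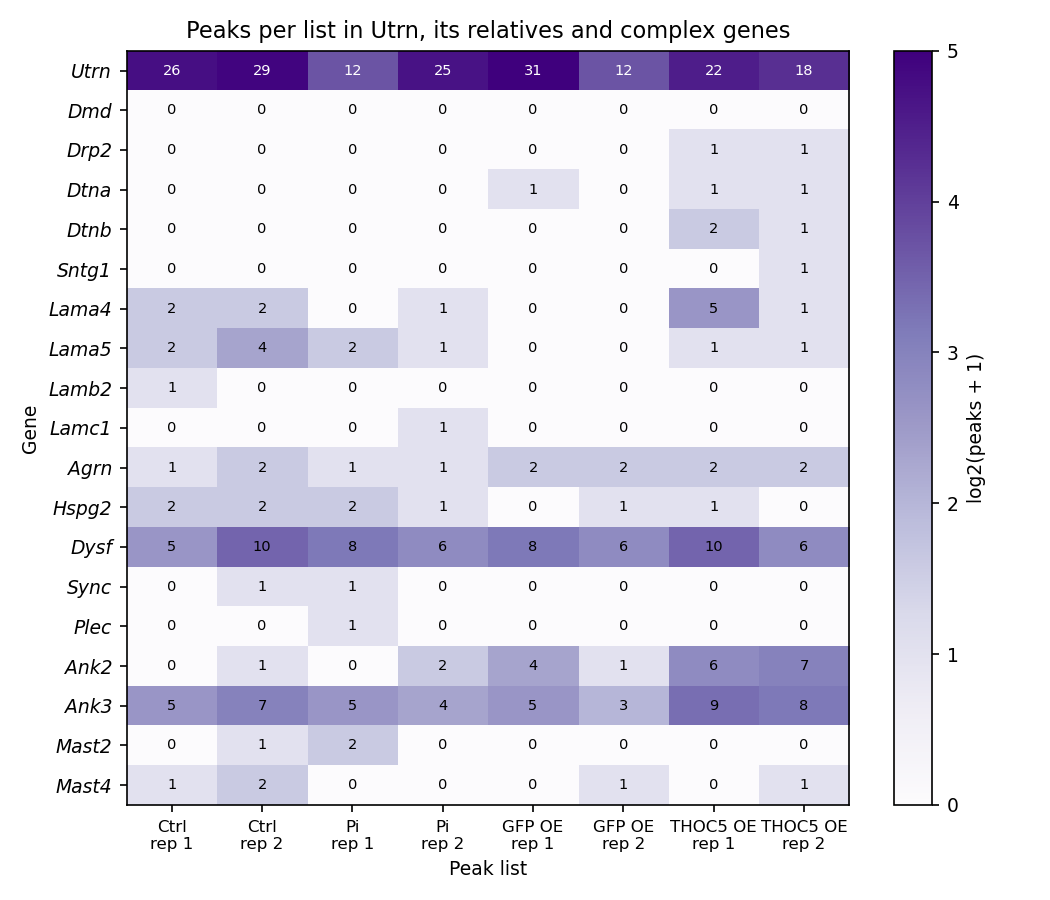
Number of peaks in each of the 8 lists (columns) for Dmd and for the genes of the member and complex lists named in the text with a peak (rows), with darker cells for more peaks on a log2(peaks + 1) scale. Utrn (12 to 31), Dysf (5 to 10), Ank3 (3 to 9) and Agrn (1 or 2) fill their rows, while Drp2, Dtna and Dtnb are filled mainly in the 2 columns of THOC5 OE.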

How the data were processed

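THOC5 immunoprecipitates of 8 samples were used, each through 1 peak list. Lists were joined to samples by the condition abbreviation and number in their headers, read against GEO's titles. The authors deposited a score per peak, and annotated the peaks on mm10 with annotatePeaks.pl (HOMER), per the file headers. FastQC, Bowtie2, MACS2 and SAMtools are named without roles, per the submitters' processing notes; no source used here gives the peak caller, how it was set or whether inputs entered it. The score was used to rank peaks within a list and for the floors of lists. Transcripts were matched to GRCm38.p6 RefSeq symbols for 28582 of 28614 peaks. Strand was not used, since the files hold a plus sign for each peak. Sites joined peaks that overlap by 1 base. The step was run on simulated peaks of 1 width at sites set far apart, which does not test chained or close sites. Python 3.11.15 and pandas 2.3.3 were used.

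The members and lists were chosen with earlier results of these data known, so no test was run; means have the SD over lists. Named were the 5 members, a list of the dystrophin-glycoprotein complex (some of its genes are not reported here), 4 spectrin-repeat giants, the 5 genes most like Utrn, sites in at least 6 lists, the highest-scoring site of each member, and exonic sites of members with 5 sites or fewer. Vps13b, sites set apart between conditions and the blocks of Utrn were named after their values were seen. Alternatives were a median score threshold, lists cut to the shortest, the authors' nearest gene, scaling to list length, 50% overlap, no repeats, each list left out and a replicate block.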

Additional observations from a re-analysis of the deposited data

How the results depend on the processing

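Of 105 alternative values, all but 4 stayed within 1 SD of the reported value without turning its sign (or within 1.5 times, for the count of sites). Among these, the peaks of Drp2, Dtna and Dtnb went to 0 with lists cut to 2572 peaks or at their median score. The 4 that reversed all came from leaving out a list: for GFP OE against Pi they were -3.5 and -6.5, and for THOC5 OE against GFP OE 0.5 and 8. Leaving out 1 list each gave -15.5 to -2.5 for Pi against Ctrl, -6.5 to 12.5 for GFP OE against Pi, -11 to 8 for THOC5 OE against GFP OE, 20.6 to 23.3 for the mean of Utrn peaks per list and 30 to 34 recurrent sites. Leaving out 1 of the 2 lists of a condition moves a difference by no more than its pooled SD, whatever the counts. That step could therefore only turn a sign. A mean over 8 lists likewise moves by no more than 1 SD when 1 is left out, so its place within 1 SD was fixed in advance. A replicate block pairs lists by number, which leaves each difference as it was by construction. These values, like those of a comparison with a list outside it left out, are counted among the 105 and could not move. Only the SD over the pairs was new, at 7.07 for -9, 22.6 for 3 and 10.6 for -1.5. Over 4051 genes the deviations of same-numbered lists correlated at 0.0392, -0.0918 and 0.0673. As a list had a peak in only 1231 to 2093 of these genes, many deviations rest on absent peaks. A batch or culture shared by same-numbered lists can therefore not be judged from these values. Scaled to the mean list length, THOC5 OE against GFP OE was -7.27. Counting the RefSeq span, and the exonic share of lists under 450 bp (30.6%), were added after seeing the data. Without read depth, a missing peak cannot be told apart from a shallow library.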
